A study of Mus musculus with 8 samples.

Results

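TRB-only thymus barcodes were single-cell barcodes on which a T cell receptor β (TRB) chain was read and no α (TRA) chain. They were the rows of the 7 thymus tables with no multiplet mark, a TRB CDR3 and no TRA CDR3, where the CDR3 is the hypervariable loop spanning the junction of the rearranged gene. There were 58534 of them among 103682 thymus barcodes without a multiplet mark, or 56.5% of those barcodes. They made up 66.8% of all thymus barcodes with a TRB chain. The comparison class was the 29134 paired thymus barcodes, which carried both chains, and 16014 further thymus barcodes carried a TRA chain alone. The 12328 TRB-only barcodes of 2 spleen tables and the 50768 of 5 tumor tables served as the control for loss of a chain during library preparation. Over the series, 253531 barcodes were listed in 14 tables.

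The study read TCR chains of mouse CD8+ T cells with Evercode TCR, a split-pool method that labels the RNA of fixed cells with a chain of well indices. Its first-round index marks the well a cell was loaded into, and so its animal and tissue. Thymic and splenic cells came from Pdcd1fl/fl mice and Pdcd1 cKO mice at baseline. Thymic and tumor-infiltrating cells came from mice of both genotypes that bore B16-OVA or B16-F10 melanoma tumors. Pdcd1 encodes the checkpoint receptor PD-1, and in the cKO mice it was deleted by an E8I-Cre transgene, which acts in CD8 lineage cells after positive selection. The labels give no genotype, tumor model or age for an animal, so no table was assigned to a genotype or tumor model and no such groups were compared. Each animal gave 1 thymus table and 1 table of a second tissue, the spleen for mouse-155A and mouse-155C and the tumor for the 5 animals mouse-160A, mouse-160B and mouse-160C and mouse-164B and mouse-164C. Thymic and splenic cells were enriched with a magnetic CD8a+ T cell kit, and tumor cells with CD8 (TIL) microbeads after dissociation and removal of dead cells. The label CD8+ T cell could not be checked against marker genes, since the tables hold receptor chains and no other transcripts. Only entries for α and β chains were read. That 0 barcodes carried a γ, δ or immunoglobulin chain thus does not show that γδ T cells or B cells were absent.

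A developing αβ T cell in the thymus rearranges TRB before TRA. A productive TRB chain pairs first with the invariant pre-TCRα chain, the cell divides, and TRA is then rearranged at the CD4+CD8+ stage, with further rounds of TRA rearrangement until a receptor is selected or the cell dies. A mature T cell transcribes both chains, but a single-cell library samples few molecules of each, so a chain that is present in the cell can go unread. A barcode without a TRA chain can therefore be a cell without a rearranged TRA transcript or a cell in which it was missed, and the tables alone do not tell these apart.

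Among the TRB-only thymus barcodes there were 40790 distinct TRB chains, each defined by its V gene, J gene and CDR3 amino acids, and 31772 of these chains (77.9%) were on 1 barcode. The chains shown here are of 2 kinds, the 5 on the most TRB-only thymus barcodes and the chain with the most transcripts on 1 barcode in each thymus table. Each is the CDR3 coding sequence, read 5′ to 3′ from the deposited annotation. Capitals mark the bases that the deposited alignment gave to neither the V nor the J gene, which hold the D segment and the nucleotides added at the junction. The V and J genes lie in the TCRβ locus on chromosome 6 of GRCm39, from Trbv1 at chr6:40868163-40868819 on the plus strand to Trbj2-7 at chr6:41520744-41520790, with Trbv31 beyond it on the minus strand at chr6:41534627-41535386. A rearranged CDR3 itself has no single genomic position.
TRBV13-1_1 with TRBJ2-7, most in the mouse-164B tumor: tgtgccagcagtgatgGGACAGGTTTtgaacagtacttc
TRBV13-1_1 with TRBJ2-4, most in the mouse-160A tumor: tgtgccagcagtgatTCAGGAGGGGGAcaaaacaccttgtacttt
TRBV12-1 with TRBJ1-2, most in the mouse-164C tumor: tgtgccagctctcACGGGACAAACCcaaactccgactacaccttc
TRBV29 with TRBJ2-1, most in the mouse-164C tumor: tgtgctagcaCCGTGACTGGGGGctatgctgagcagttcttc
TRBV1 with TRBJ2-2, most in the mouse-160C tumor: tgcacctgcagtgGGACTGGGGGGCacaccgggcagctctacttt
The chains with the most transcripts on 1 TRB-only barcode of a thymus table follow.
mouse-155A thymus, TRBV12-1 with TRBJ2-7: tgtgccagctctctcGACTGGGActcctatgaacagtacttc
mouse-155C thymus, TRBV13-1_1 with TRBJ2-2: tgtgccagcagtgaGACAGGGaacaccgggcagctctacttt
mouse-160A thymus, TRBV12-2 with TRBJ2-2: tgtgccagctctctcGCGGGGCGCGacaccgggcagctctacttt
mouse-160B thymus, TRBV1 with TRBJ2-2: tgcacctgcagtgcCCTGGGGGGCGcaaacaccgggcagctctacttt
mouse-160C thymus, TRBV12-2 with TRBJ2-3: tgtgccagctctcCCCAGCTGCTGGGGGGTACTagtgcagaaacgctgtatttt
mouse-164B thymus, TRBV16 with TRBJ2-1: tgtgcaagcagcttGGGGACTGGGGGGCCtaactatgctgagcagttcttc
mouse-164C thymus, TRBV13-2 with TRBJ2-5: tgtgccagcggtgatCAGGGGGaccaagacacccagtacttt

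The 5 most widespread chains were all large chains of a tumor table. The TRBV13-1_1 with TRBJ2-7 chain was on 408 TRB-only thymus barcodes spread over all 7 thymus tables, from 41 in mouse-164B to 104 in mouse-160C, and 98.0% of these barcodes held 1 transcript of it. The same chain was on 29 paired thymus barcodes and on 1324 barcodes of the mouse-164B tumor, of which 1020 were paired. The TRBV13-1_1 with TRBJ2-4 chain was on 326 TRB-only thymus barcodes in 7 tables and on 590 barcodes of the mouse-160A tumor. Widespread thymus chains and large tumor chains were thus the same chains in these examples, and they were read with at most 3 transcripts on a TRB-only thymus barcode. For 58.3% of the 408 barcodes and 67.2% of the 326, the chain was repeated at the same later-round indices. That is, another barcode of the same second-round well, third-round well and sublibrary held it.

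The other chains of this kind behaved alike. The TRBV12-1 with TRBJ1-2 chain was on 256 TRB-only thymus barcodes and on 1287 barcodes of the mouse-164C tumor, 819 of them paired. The TRBV29 with TRBJ2-1 chain was on 209 TRB-only thymus barcodes and on 568 barcodes of the same tumor. The TRBV1 with TRBJ2-2 chain was on 194 TRB-only thymus barcodes and on 825 barcodes of the mouse-160C tumor. All 3 reached at most 2 transcripts on a TRB-only thymus barcode and were found in 7 thymus tables. In the order given, 57.0%, 56.5% and 50.5% of their TRB-only thymus barcodes had the chain repeated at the same later-round indices.

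The most frequent TRB-only chain of the mouse-160B thymus, with TRBV3 and TRBJ1-2, differed from these 5. Of its 161 TRB-only thymus barcodes, 134 were in the thymus of mouse-160B and 2 to 8 in each other thymus table. Of its TRB-only barcodes, 45.96% held 1 transcript, the highest held 11, and 57 barcodes of the mouse-160B tumor carried it. The chain was repeated at the same later-round indices for 18.0% of the 161. A TRBV12-1 with TRBJ2-7 chain that the study singles out was on 4 TRB-only thymus barcodes in 4 tables, with 1 transcript on each. It was also on 31 spleen and tumor barcodes, 24 of them in the mouse-160A tumor. For 3 of the 4 thymus barcodes the chain was repeated at the same later-round indices, and 0 paired thymus barcodes carried it. The study reports a clonotype with this CDR3 in the tumor and not in the thymus, in an experiment. It defined clonotypes by paired α and β chains, so a β chain alone is an unlike measure.
TRBV3 with TRBJ1-2, mouse-160B: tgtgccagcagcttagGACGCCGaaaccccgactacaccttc
TRBV12-1 with TRBJ2-7, named by the study: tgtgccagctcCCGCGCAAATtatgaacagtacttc

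At the other end stood TRB-only barcodes with many TRB transcripts and no TRA chain. The highest barcode held 66 transcripts of its TRBV12-2 with TRBJ2-3 chain in mouse-160C and 63 of its TRBV16 with TRBJ2-1 chain in mouse-164B. It held 58 in mouse-160A, 57 in the thymus of mouse-160B, 51 in mouse-164C, 48 in mouse-155A and 40 in mouse-155C. None of these 7 chains was on a paired thymus barcode, and each was on 0 to 2 spleen or tumor barcodes. They were picked for a TRB-only barcode, and 77.9% of the chains of the class were on 1 TRB-only thymus barcode. Their absence from paired barcodes is thus not read as a trait of deep barcodes.

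TRB-only thymus barcodes were thus spread over a wide range of TRB transcripts, the molecules of the chain that the authors' pipeline counted on a barcode. Of the 58534 barcodes, 36595 (62.5%) held 1 TRB transcript, 9399 (16.1%) held 2 to 4, 6331 (10.8%) held 5 to 9, and 6209 (10.6%) held 10 or more. The transcripts were divided differently. The barcodes with 1 transcript gave 17.5% of the 208586 TRB transcripts of the class, and those with 10 or more gave 49.6%.

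**Figure D1:**
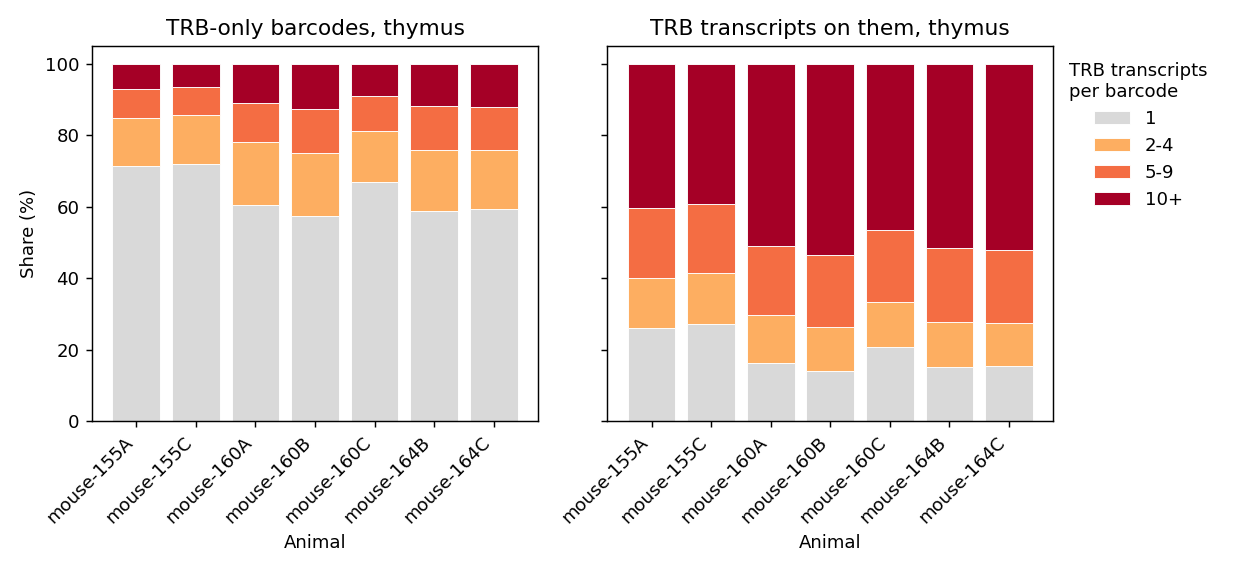
TRB-only thymus barcodes of the 7 animals by the number of TRB transcripts on the barcode; the left panel stacks the share of barcodes (%) and the right panel the share of their TRB transcripts (%), each adding to 100 in an animal. Barcodes with 1 transcript made up 57.5% to 71.9% of the class and those with 10 or more 6.52% to 12.7%, but the latter held 39.1% to 53.5% of the transcripts.

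The makeup was similar in all 7 thymus tables. The share of TRB-only barcodes with 1 transcript was lowest in mouse-160B, at 57.5%, had a median of 60.5% and was highest in mouse-155C, at 71.9%. The share with 10 or more ran from 6.52% in mouse-155C to 12.7% in mouse-160B with a median of 11.03%. Mouse-155A and mouse-155C, the animals whose second tissue was the spleen, had the highest shares with 1 transcript and the lowest with 10 or more.

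Depth differed between tables, with 4371 to 12391 TRB-only barcodes per thymus table and 19305358 TRB reads on the class in all. A TRB-only thymus barcode had 79.8 to 91.4 reads per transcript over the tables, with a median of 87.9, against 84.8 to 107.7 and a median of 102.2 on paired barcodes. No barcode name was shared between tables (0 of them). The 8 multiplexed sublibraries, into which every table was split, were alike, with TRB-only shares of 64.9% to 68.1% of TRB-bearing thymus barcodes.

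Whether thymus barcodes lacked TRA more often than barcodes of another tissue was asked within each animal, as the control for chain loss. The TRB-only share of TRB-bearing thymus barcodes was 76.2% and 80.8% in mouse-155A and mouse-155C, 66.8%, 63.4% and 66.0% in mouse-160A, mouse-160B and mouse-160C, and 62.1% and 65.9% in mouse-164B and mouse-164C. In the second tissue it was 68.6% and 78.5% in the spleens of mouse-155A and mouse-155C, 65.7%, 59.7% and 72.1% in the tumors of mouse-160A, mouse-160B and mouse-160C, and 59.4% and 55.6% in those of mouse-164B and mouse-164C. The thymus was higher in 6 of 7 animals, and the ranges of thymus and second tissue overlapped.

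The median difference was 2.67 percentage points (range -6.16 to 10.3, n = 7), with p = 0.1875 in an exact two-sided sign-flip permutation test over animals and 0.305 after Benjamini-Hochberg adjustment over 13 comparisons of tissues. This test pairs the tables of an animal, and the smallest p it allows with 7 animals is 0.015625. The opposite loss was measured as the TRA-only share of TRA-bearing barcodes, which was 33.9% in the thymus and 40.6% in the second tissue (medians). Its difference was -3.35 points at the median (lower in 6 of 7 animals, exact permutation p = 0.109, adjusted 0.203), which did not pass the threshold either.

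The tissues parted once barcodes were set side by side at equal TRB transcripts. In the thymus, the share lacking TRA was 79.7% to 90.3% at 1 transcript (median 83.2%) and 36.7% to 53.6% at 2 (median 41.3%). It then rose again, to 44.0% to 67.1% at 5 to 9 transcripts (median 49.7%), 69.1% to 85.8% at 10 to 14 (median 73.0%) and 78.1% to 87.4% at 15 or more (median 81.0%). More TRB transcripts thus went with fewer missing TRA chains only up to 2 to 4 transcripts.

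The tumor tables did not show that return. Their share lacking TRA was 72.8% to 90.9% at 1 transcript, 29.3% to 43.4% at 5 to 9, 18.1% to 41.4% at 10 to 14 and 14.8% to 45.6% at 15 or more. Thymus and tumor tables overlapped at 1 to 4 transcripts and did not overlap at 5 to 9 or above. The 2 spleen tables had few barcodes of this depth, 39 with 10 or more transcripts, of which 10 lacked TRA. On their 793 barcodes with 5 to 9 transcripts the share was 39.9% in mouse-155A and 47.6% in mouse-155C. The higher of these was within the thymus range of 44.0% to 67.1%, while the thymus of the same animals was at 59.1% and 67.1%.

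**Figure D2:**
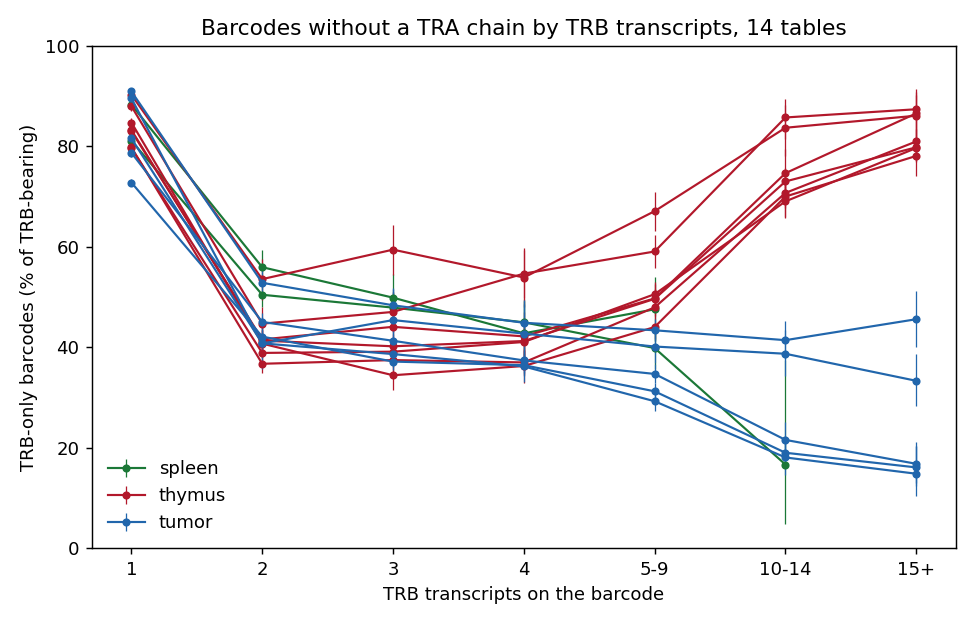
Share of TRB-bearing barcodes that lacked a TRA chain (vertical axis, %) against the number of TRB transcripts on the barcode (horizontal axis) in the 14 tables; each line is 1 table, bars are exact 95% binomial intervals, and points on fewer than 20 barcodes were left out. The 7 thymus lines fall to a median of 41.3% at 2 transcripts and rise to 81.0% at 15 or more, where the tumor median was 16.8%.

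In each animal the barcodes with 10 or more TRB transcripts showed the same order. In the thymus, 86.5% and 84.8% of them lacked TRA in mouse-155A and mouse-155C, 80.6%, 74.4% and 73.9% in mouse-160A, mouse-160B and mouse-160C, and 75.8% and 76.2% in mouse-164B and mouse-164C. In the spleens these shares were 19.2% (95% interval 6.55% to 39.4%, 26 barcodes) and 38.5% (13.9% to 68.4%, 13 barcodes). In the tumors they were 36.4%, 19.7% and 42.8% in mouse-160A, mouse-160B and mouse-160C, and 17.0% and 18.0% in mouse-164B and mouse-164C. The lowest thymus table was above the highest table of a second tissue. Intervals are exact (Clopper-Pearson) and, as everywhere here, cover counting error only.

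Over the 7 thymus tables, 6209 of 8074 barcodes of this depth were TRB-only, against 1184 of 4321 in the tumors. With barcodes of 10 or more transcripts alone, a setting chosen after the data were seen, the difference was 54.7 points at the median, with the exact permutation p at its smallest value of 0.015625 and 0.0781 after adjustment over the 5 tests of that setting. In the set of tests that was planned, the top stratum was 5 or more transcripts. There, 54.6% to 74.1% of thymus barcodes lacked TRA against 26.2% to 47.1% in the second tissue, higher in 7 of 7 animals by a median of 29.8 points (11.4 to 32.4). The exact permutation p was again the smallest possible, 0.015625, and adjusted over 13 tests it was 0.102, above the threshold of 0.05. Without the chains that were on 50 or more spleen and tumor barcodes, a setting added after the data were seen, this difference was 26.2 points, and it was higher in 7 of 7 animals.

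At low depth the order differed. At 2 transcripts the thymus share was lower than that of the second tissue in 6 of 7 animals, by -4.06 points at the median (-12.1 to 0.80, exact permutation p = 0.0469, adjusted 0.122). At 1 transcript the difference was 0.93 points, higher in 4 of 7 animals (exact permutation p = 0.719). When the shares were standardised to 1 mix of transcript strata, the thymus was higher by 5.43 points in 6 of 7 animals (exact permutation p = 0.0469, adjusted 0.122). None of these passed after adjustment.

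The pattern was present across wells and sublibraries. Among barcodes with 5 or more TRB transcripts, the share lacking TRA was 50.5% to 81.5% over 24 first-round wells of the thymus, 21.9% to 53.4% over 18 wells of tumors and 34.2% to 58.0% over 6 wells of the spleen. The thymus wells overlapped slightly with the tumor wells and also overlapped with the spleen wells. Over the 8 sublibraries, 75.1% to 79.8% of thymus barcodes with 10 or more transcripts lacked TRA.

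The TRA chains that were read beside many TRB transcripts were also few in the thymus. On paired barcodes with 10 or more TRB transcripts, the mean number of TRA transcripts was 2.91 at the median of the 7 thymus tables (2.44 to 3.66), and 43.1% of these barcodes held 1 TRA transcript. In the second tissue the mean was 6.69 (4.33 to 7.58) and the share with 1 TRA transcript 15.4%, so the tables did not overlap in mean TRA transcripts. Chain levels of different cell types cannot be read from these tables, and the part of TRA transcript level in the missing chains was not tested.

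TRB-only thymus barcodes held fewer TRB transcripts than paired ones, but only at the low end. The share with 1 transcript was 57.5% to 71.9% (median 60.5%) against 23.0% to 32.6% (median 24.8%) on paired barcodes, with no overlap. It was higher in 7 of 7 animals by 36.2 points at the median (32.1 to 43.5, exact permutation p = 0.015625, adjusted 0.0313 over 6 comparisons of classes). The same difference in the second tissue was 42.6 points at the median, and the difference between tissues was -9.82 points (exact permutation p = 0.0625, adjusted 0.135).

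The mean number of TRB transcripts was 2.65 to 4.08 on TRB-only barcodes (median 3.70) and 3.27 to 4.14 on paired ones (median 3.89). The difference was -0.27 at the median (exact permutation p = 0.0469, adjusted 0.0563) and did not pass. Among barcodes with 2 or more transcripts it was reversed, at 2.95 more transcripts on TRB-only barcodes in 7 of 7 animals (exact permutation p = 0.015625, adjusted 0.0195). The median TRB read count per barcode was 52 to 95 on TRB-only and 127 to 223 on paired barcodes, lower in 7 of 7 animals.

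Some TRB-only chains recurred on spleen and tumor barcodes. A chain counted as expanded when it was on 50 or more spleen and tumor barcodes, and 110 chains met this. They accounted for 5055 TRB-only thymus barcodes, which were 10.3% to 18.4% of those with 1 transcript and 0% to 0.316% of those with 10 or more. On paired thymus barcodes with 1 transcript the share was 1.44% to 6.44%, below the TRB-only range.

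Chains also recurred within the index space of the split-pool method. For 12724 (34.8%) of the 36595 TRB-only barcodes with 1 transcript, the same TRB chain stood on another barcode of the same second-round well, third-round well and sublibrary, a barcode that differed only in the first-round well. Of these, 11741 (92.3%) had such a partner in a table of another animal, and 9380 (73.7%) had a partner with more transcripts. In the 7 tables the share was 27.5% to 45.3% on TRB-only barcodes with 1 transcript and 10.1% to 13.6% on paired ones, with no overlap. On barcodes with 10 or more transcripts it was 38.8% to 50% against 27.9% to 46.5%, where the classes overlapped. What makes a chain recur at the same later-round indices was not tested.

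**Figure D3:**
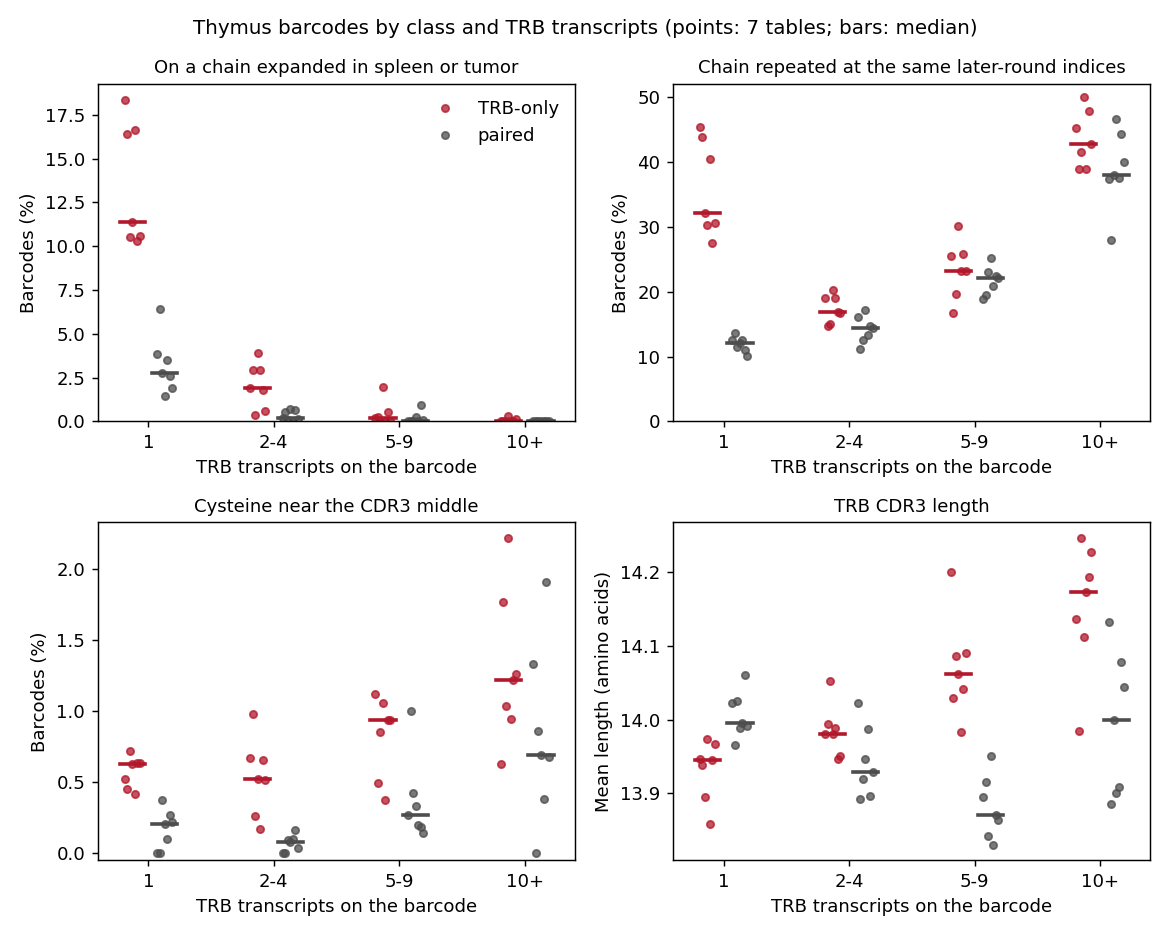
TRB-only (red) and paired (grey) thymus barcodes by the number of TRB transcripts on the barcode; points are the 7 thymus tables and bars their medians, for the share of barcodes (%) on an expanded chain, with the chain repeated at the same second- and third-round indices and sublibrary, and with a cysteine near the CDR3 middle, and for the mean CDR3 length in amino acids. Expanded chains were at a median of 11.4% of TRB-only barcodes with 1 transcript and 0% of those with 10 or more, while the median of the mean CDR3 lengths was 13.9 amino acids with 1 transcript and 14.2 with 10 or more.

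Sharing of chains between animals was compared in the same way. A chain counted as public when a table of another animal held it too. A barcode whose chain stood in another animal's table at the same later-round indices thus counted as well. Such barcodes made up 25.3% to 38.3% of TRB-only and 13.4% to 18.1% of paired thymus barcodes. Public chains were on 46.04% to 61.7% of TRB-only thymus barcodes (median 52.2%) and on 29.6% to 35.1% of paired ones (median 32.4%). The difference was 19.7 points, higher in 7 of 7 animals (exact permutation p = 0.015625, adjusted 0.0313). The same class difference was 25.2 points in the mouse-155A spleen, 34.6 points in the mouse-155C spleen and -4.52 to 8.52 points in the tumors, so the spleens were within or above the thymus range of 16.1 to 30.5 points and the tumors below it. The class difference was larger in the thymus than in the second tissue in 6 of 7 animals, by 11.2 points at the median (exact permutation p = 0.0469, adjusted 0.122), which did not pass. Among barcodes with 5 or more transcripts it turned to -2.06 points (exact permutation p = 0.015625, adjusted 0.0195), with medians of 42.7% and 39.7% over the tables when chains are counted as public on all barcodes. The 2 counts differ because a chain's other barcodes were left out of the first. The direction at 5 or more transcripts thus rested on which barcodes were counted.

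CDR3 length was nearly the same in both classes over all barcodes. The mean was 13.92 to 14.01 amino acids on TRB-only and 13.919 to 14.004 on paired barcodes, and the difference of 0.04 (5 of 7 animals higher, exact permutation p = 0.0938) did not pass. With more transcripts a difference appeared. At 5 or more transcripts, a setting chosen after the data were seen, the mean was 14.01 to 14.17 on TRB-only and 13.85 to 13.94 on paired barcodes, with no overlap. The difference was 0.23 amino acids in 7 of 7 animals (exact permutation p = 0.015625, adjusted 0.0195). In the second tissue at this depth the means were 13.64 to 13.86 and 13.20 to 13.94, and the classes overlapped. At 10 or more transcripts the classes overlapped in the thymus too, with a difference of 0.18 (adjusted exact permutation p = 0.0781). The bases between the V and J gene at this depth numbered 9.95 to 10.6 on TRB-only barcodes and 9.02 to 10.5 on paired ones.

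A cysteine within 2 positions of the CDR3 middle, a feature that has been linked to self-reactive receptors in the thymus, was rare in both classes and more frequent on TRB-only barcodes. It was on 400 TRB-only and 60 paired thymus barcodes. The share was lowest in mouse-160C, at 0.425%, had a median of 0.687% and was highest in mouse-160B, at 0.864%, against 0.0959% to 0.304% on paired barcodes. The classes did not overlap.

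The difference was 0.45 points at the median (0.28 to 0.66, 7 of 7 animals, exact permutation p = 0.015625, adjusted 0.0313). In the second tissue, 150 of 63096 TRB-only and 42 of 37780 paired barcodes carried such a cysteine. The shares there were 0.173% to 0.514% and 0% to 0.151%, and the highest, in the mouse-155C spleen, was within the thymus range. TRB-only barcodes were higher in every second tissue too, by 0.070 to 0.370 points. The class difference was larger in the thymus in 7 of 7 animals by 0.37 points (exact permutation p = 0.015625, adjusted 0.102 over 13). At 10 or more transcripts the thymus shares were 0.626% to 2.22% and 0% to 1.91%, the classes overlapped and the difference did not pass (adjusted exact permutation p = 0.3125). With 85 and 18 barcodes behind them, these shares were imprecise.

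CDR3s of this kind with many transcripts, chosen after their values were seen, are shown with the bases between V and J in capitals as before. The chain with TRBV12-2 and TRBJ1-2 had 38 transcripts on 1 TRB-only barcode of the mouse-160B thymus. The chain with TRBV29 and TRBJ2-7, whose CDR3 had 8 amino acids, was on 4 TRB-only barcodes in 2 tables. It had 37 transcripts on 1 of them, in the mouse-164B thymus. The end of its CDR3 differed from that of the other TRBJ2-7 chains shown here. The middle was taken from the CDR3 as listed, so for this chain its place is uncertain. The chain with TRBV12-2 and TRBJ2-1 had 35 transcripts on 1 barcode of the mouse-160B thymus. None of the 3 was on a paired thymus barcode, but these chains too were picked for a TRB-only barcode.
TRBV12-2 with TRBJ1-2: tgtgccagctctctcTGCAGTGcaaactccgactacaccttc
TRBV29 with TRBJ2-7: tgtgctagcagttGTGGGGGcttg
TRBV12-2 with TRBJ2-1: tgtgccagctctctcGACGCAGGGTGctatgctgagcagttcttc

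A barcode could list a second TRB chain. On TRB-only thymus barcodes with 10 or more transcripts this was so for 22.1% to 28.2% (median 24.5%), and on paired ones for 23.0% to 47.2% (median 35.3%). The classes overlapped. With 1 transcript it was 2.38% to 3.04% and 7.04% to 9.09%, without overlap.

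TRBV and TRBJ usage, the share of barcodes with each gene, was compared between TRB-only and paired thymus barcodes with the edgeR quasi-likelihood test and the animal as a block. Of 23 TRBV genes tested, 11 passed an adjusted p of 0.05 (47.8%), 8 of them higher among TRB-only barcodes (34.8%). The balance of higher and lower genes depended on the test, with 3 higher and 5 lower in the sign-flip test of shares, 3 and 3 in DESeq2, and 3 and 3 in edgeR without mouse-160B. Of 13 TRBJ genes, 7 passed (53.8%), 3 of them higher (23.1%). The sign-flip test of shares called 0 of the 13 TRBJ genes (smallest adjusted exact permutation p = 0.102), with 4 at an unadjusted p under 0.05, and DESeq2 called 7. Shares add to 100, so a gene that gains is matched by others that lose. Genes with near-identical copies, such as the TRBV12 and TRBV13 groups, may be split unevenly by the alignment.

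TRBV15 and TRBV31_1 had the highest log2 ratios among the genes that passed over all barcodes. TRBV15 was on 3.80% to 4.76% of them (median 4.23%) against 2.76% to 3.45% of paired barcodes, with no overlap (log2 ratio 0.46, edgeR adjusted p = 1.86e-06). Its log2 ratio was -0.02 with 5 or more transcripts and -0.41 with 10 or more, and it passed at neither depth (edgeR adjusted p = 0.869 and 0.0817). TRBV31_1 was on 3.18% against 2.50% at the medians (log2 ratio 0.35, edgeR adjusted p = 6.54e-05). TRBV31 is the gene downstream of the constant regions that rearranges by inversion. TRBV12-2, TRBV13-1_1, TRBV16 and TRBV12-1 also passed, with log2 ratios of 0.17, 0.16, 0.16 and 0.13.

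TRBV19, TRBV13-3 and TRBV13-2 were lower among TRB-only barcodes, and none of these 3 overlapped between the classes. TRBV19 was on 3.52% against 4.59% (log2 ratio -0.37), TRBV13-3 on 5.38% against 6.65% (log2 ratio -0.36) and TRBV13-2 on 10.3% to 11.1% against 12.1% to 14.045% (log2 ratio -0.28, edgeR adjusted p = 1.80e-05). TRBV13-2 is often used by invariant NKT cells, whose α chain joins TRAV11 to TRAJ18. Paired thymus barcodes held this α chain on 9.77% to 17.2% of those with 1 TRB transcript and on 1.57% to 4.65% of those with 5 or more. Without TRAV11 to TRAJ18 barcodes, a setting chosen after the data were seen that removed paired barcodes only, TRBV13-2 was higher among TRB-only barcodes (log2 ratio 0.13). TRBV29 and TRBV1, which such cells also use, did not pass (log2 ratios -0.05 and -0.10).

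Among TRBJ genes, TRBJ2-1 and TRBJ2-2 were higher on TRB-only barcodes. TRBJ2-1 was on 12.3% to 14.9% against 11.1% to 12.2%, with no overlap (log2 ratio 0.16, edgeR adjusted p = 5.96e-05), and TRBJ2-2 on 5.89% against 5.10% at the medians (log2 ratio 0.23). TRBJ1-5, TRBJ2-5 and TRBJ1-1 were lower, with log2 ratios of -0.30, -0.13 and -0.07. TRBJ2-7, the most frequent J gene at 18.2% against 19.0%, did not pass. The TRBJ2 cluster as a whole was on 64.3% against 63.1% of barcodes (0.86 points, higher in 6 of 7 animals, exact permutation p = 0.0313, adjusted 0.0469). This class difference ran from -0.07 to 3.32 points in the thymus tables and from -11.3 to 17.9 points in the second tissue. In the thymus the TRBJ2 difference turned to -1.29 points with 2 or more transcripts and to -0.20 without repeated chains at the same later-round indices.

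**Figure D4:**
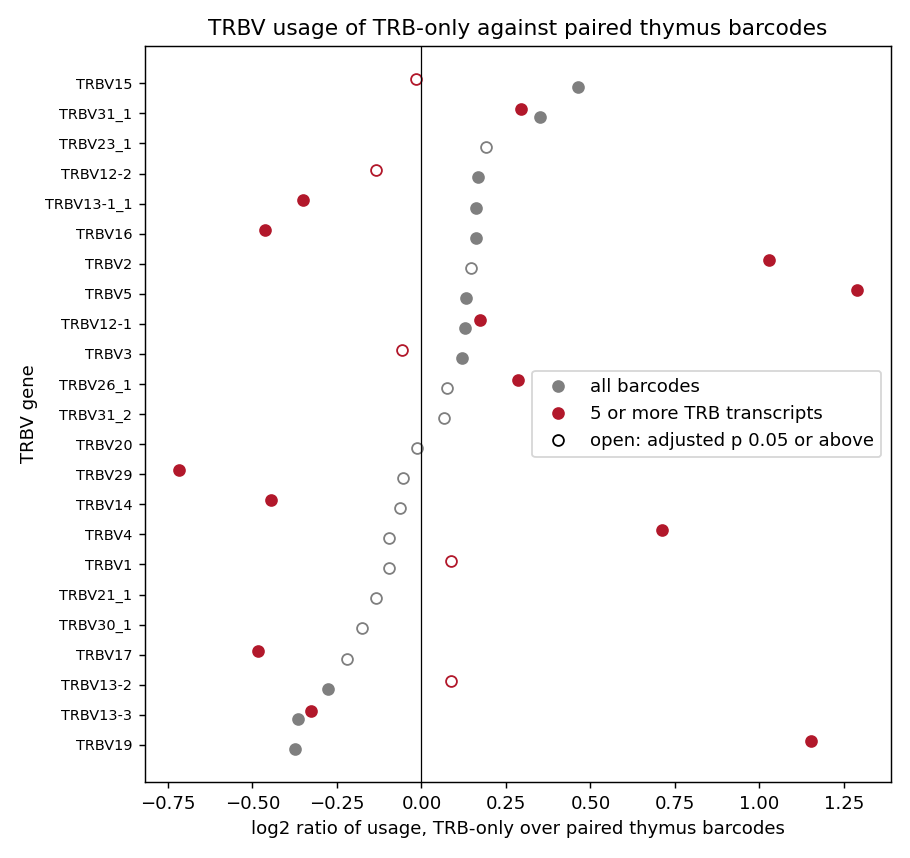
TRBV usage of TRB-only against paired thymus barcodes as a log2 ratio (horizontal axis) for each gene tested (vertical axis), over all barcodes (grey) and over barcodes with 5 or more TRB transcripts (red); filled points passed an adjusted p of 0.05 in edgeR. TRBV19 moved from -0.37 to 1.15 and TRBV5 from 0.13 to 1.29.

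With 2 or more TRB transcripts, 14 of 20 TRBV genes passed (70%), 8 of them higher among TRB-only barcodes (40%), and 7 of 13 TRBJ genes (53.8%), 5 of them higher (38.5%). Of the TRBV genes that passed there and over all barcodes, 5 had the same direction, while TRBV13-1_1 and TRBV19 were opposite. Usage among barcodes with 5 or more TRB transcripts was a different picture, and this setting and the genes named from it were chosen after the values were seen. There, 13 of 18 TRBV genes passed (72.2%), 7 of them higher among TRB-only barcodes (38.9%). TRBV5 was on 5.05% to 5.91% of TRB-only and 1.12% to 2.81% of paired barcodes (log2 ratio 1.29, edgeR adjusted p = 1.50e-18). TRBV19 was on 2.27% to 3.37% against 0.766% to 1.62% (log2 ratio 1.15), TRBV2 on 3.45% against 2.08% at the medians (log2 ratio 1.03) and TRBV4 on 3.16% to 4.09% against 1.19% to 2.59% (log2 ratio 0.71). TRBV5, TRBV19 and TRBV4 did not overlap between the classes.

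Lower at this depth were TRBV29, at 3.69% to 4.802% against 5.82% to 8.81% (log2 ratio -0.72), TRBV16, at 6.50% to 8.56% against 9.78% to 12.1% (log2 ratio -0.46), and TRBV14, at 2.67% to 4.13% against 4.26% to 5.42% (log2 ratio -0.44). None of the 3 overlapped. TRBV2, TRBV4 and TRBV5 are neighbours in the locus, at chr6:41024274-41024929, chr6:41036328-41036820 and chr6:41039266-41039737, while TRBV19 lies apart at chr6:41155309-41155982. TRBV3, between TRBV2 and TRBV4 at chr6:41025224-41025762, was on 8.10% against 8.12% and did not pass, so the neighbours did not move as a block. Of the genes that passed both over all barcodes and at 5 or more transcripts, 4 had the same direction and 3 the opposite one, namely TRBV13-1_1, TRBV16 and TRBV19.

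For TRBJ genes at this depth, 5 of 12 passed (41.7%), 3 of them higher (25%). TRBJ1-3_1 was on 4.02% to 5.57% against 2.89% to 4.60% (log2 ratio 0.52), TRBJ1-6 had a log2 ratio of 0.30 and TRBJ1-4 one of 0.27. TRBJ2-7 (log2 ratio -0.26) and TRBJ2-1 (log2 ratio -0.19) were lower. The TRBJ2 cluster as a whole was lower by -4.56 points (exact permutation p = 0.0313, adjusted 0.0313). At 10 or more transcripts 0 of 16 TRBV genes and 1 of 11 TRBJ genes (9.09%) passed in edgeR, with 4 TRBV genes at an unadjusted p under 0.05.

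Whether the thymus differed from the control tissues in these class differences was tested as an interaction in edgeR over all 14 tables. Over all barcodes, 0 of 23 TRBV and 0 of 13 TRBJ genes passed (0%), with 2 and 1 at an unadjusted p under 0.05, and DESeq2 called 0 of each. The TRBV count rested on how chains were counted, with 9 of 22 genes called after counting a chain only once per class and table and 8 of 21 without chains of another animal, and 0 TRBJ genes in both settings (1 and 3 at an unadjusted p under 0.05). At 5 or more transcripts 1 of 19 TRBV genes passed (5.26%). This was TRBV16, which was lower on TRB-only barcodes in the thymus and higher in the second tissue, at 12.2% against 7.39% (interaction log2 ratio -1.18, edgeR adjusted p = 0.0177). TRBV5 had an interaction log2 ratio of -0.10 (edgeR adjusted p = 0.879), and TRBV19 one of 1.35 (edgeR adjusted p = 0.0825). At 10 or more transcripts 3 of 14 TRBV genes passed (21.4%), TRBV13-3, TRBV13-2 and TRBV16, with interaction log2 ratios of 2.30, 1.52 and -1.43. In spleen and tumor tables, a few expanded chains can set the usage of a gene.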

How the data were processed

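Per the study's methods, the authors built and annotated the chains with the TCR pipeline of Parse Biosciences. Its version is not given in the sources used here, and the submitters' processing notes name GRCm39. The deposited barcode tables give, for each barcode, the counts of reads and of transcripts of its main TRA and TRB chain, their genes and CDR3s and a multiplet mark. These counts were used as deposited. All 8 samples are multiplexed sublibraries with no condition in the labels, so no groups were formed, and the animal and tissue of a table came from the name it was deposited under. The tables of clonotypes and of fractions were not used. The deposited annotation, held here in part for the thymus of mouse-164B (41.5% of TRB-only barcodes) and mouse-160B (93.0%), gave the nucleotide sequences.

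Multiplet-marked barcodes were left out, 935 of them TRB-only thymus barcodes, and 7 TRB-only CDR3s with other characters than letters were left out of length and cysteine counts. Barcodes are not replicates, so each table gave 1 value, and tables of an animal were compared by an exact two-sided sign-flip permutation test over 7 animals, with Benjamini-Hochberg adjustment within 13 comparisons of tissues and within 6 of classes. Genotype and tumor model may differ between these animals, so the spread is over a mixed set of mice. Barcodes per TRBV or TRBJ gene were tested with edgeR 4.0.16 (glmQLFit and glmQLFTest, R 4.3.3), with the animal (or, for the interaction, the table) as a block, the class total as library size and a mean of at least 10 barcodes per column. DESeq2 1.42.0 was an alternative. Tested on simulated data for the TRBV comparison of classes in the thymus, with 23 genes, the fit recovered 6 of 6 changed genes with 0 false calls. For the TRBJ comparison of classes, with 13 genes, it recovered 4 of 4 with 0 false calls. For the interaction it recovered 6 of 6 with 1 false call among 22 TRBV genes, and 3 of 4 with 0 false calls among 13 TRBJ genes. The simulation was run a single time. Apart from the changed genes, it gave all tables the same mean usage, with no expanded chains and no usage particular to an animal or tissue. Its counts thus do not measure how often the fits err on the real tables. Adjusted p under 0.05 was the threshold.

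Genes were named by a rule: the 3 TRBV and 3 TRBJ genes most used by TRB-only thymus barcodes, up to 12 genes that passed the usage test by size of log2 ratio, and TRBV genes of invariant NKT cells. Chains were named as the most frequent per table, the 5 most frequent over all, the one with the most transcripts per table and 1 that the study names. The TRBV13-1_1 style of name is that of the deposited tables, and positions are from GENCODE on GRCm39. The members, lists and tests were chosen with earlier results of these data known. Alternatives were a transcript minimum of 2, chains counted once, barcodes with second chains or repeated chains or chains of another animal left out, multiplets kept, TMM factors, no filter, DESeq2, shares tested by sign flips, and each animal and sublibrary left out. Minimums of 5 and 10 transcripts, and leaving out expanded chains and TRAV11 to TRAJ18 barcodes, were added after the data were seen.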

Additional observations from a re-analysis of the deposited data

Results flagged for a closer look

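In 38 sets of values searched for an animal far from the others, 1 was found, and chance gives about 1 in 20. The mean CDR3 length of paired thymus barcodes was 14.004 amino acids in mouse-155A and 13.919 to 13.955 in the other 6 animals. It is the reference for the TRB-only barcodes of the same table, whose mean was 13.985.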

How the results depend on the processing

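Under other settings, 382 comparisons of tissues and classes stayed the same, 29 no longer passed, 8 newly passed, 16 turned and 15 counts moved by over 1.5 times. A tested difference stayed the same if it kept its direction and its side of the threshold. A count of called genes did so if it moved by at most 1.5 times, whichever genes were called. With 5 or more transcripts, 13 TRBV genes were called against 11, and 4 called in both had the same direction and 3 the opposite one. For single named genes, single transcript strata and mean transcripts, 484 kept their direction and their side of the threshold, 62 no longer passed, 19 newly passed and 40 turned. Differences between tissues and classes are in percentage points, lengths in amino acids and usage as log2 ratios. The cause of a change was not tested, except that leaving out an animal raises the smallest exact permutation p to 0.03125. Its value after adjustment over 6 tests depends on how many of them are at that smallest p.

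With 2 or more TRB transcripts, TRB-only thymus barcodes had 2.95 more transcripts than paired ones, CDR3s longer by 0.11, a TRBJ2 share of -1.29 and a public share of -1.33. The differences between tissues in these class differences were -2.87 for TRBJ2 and -0.023 for public chains. Usage turned to -0.26 for TRBV13-1_1, -0.043 for TRBJ2-1, 0.47 for TRBV19 and -0.11 for TRBV16.

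With 5 or more, these values were 3.22 transcripts, 0.23 in length, -4.56 for TRBJ2 and -2.06 for public chains, and between tissues -12.1 and -1.32. Usage turned for TRBV13-2 (0.087), TRBV13-1_1 (-0.35), TRBJ2-1 (-0.19), TRBJ1-1 (0.080), TRBV15 (-0.015), TRBV19 (1.15), TRBJ1-5 (0.12), TRBV12-2 (-0.14), TRBV16 (-0.46) and TRBV1 (0.087), and 1 interaction of a TRBV gene was called. With 10 or more, they were 1.52 transcripts, -3.77 for TRBJ2, -0.97 for public chains and, no longer past the threshold, 0.56 for the cysteine, and between tissues -15.9 for TRBJ2 and -0.58 for public chains. Usage turned for TRBV13-2 (0.25), TRBV13-1_1 (-0.11), TRBJ2-1 (-0.089), TRBV15 (-0.41), TRBV12-2 (-0.16), TRBV16 (-0.39), TRBJ2-5 (0.053) and TRBV1 (0.28). At this depth 0 TRBV genes, 1 TRBJ gene and 3 interactions were called.

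With each distinct chain counted once, the TRB-only share differed between tissues by -0.23 over all barcodes and -1.13 at 1 transcript, the mean transcripts of the classes by 0.24, length by 0.058, TRBJ2 by 0.45 and TRBV13-1_1 by -0.058, with 9 TRBV interactions called. Without chains of another animal, the TRB-only share differed by 22.9 at 5 or more transcripts (adjusted exact permutation p = 0.0469, past the threshold) and by -0.63 at 4, and the TRA-only share by -7.60. In that setting the cysteine difference between tissues was 0.52 and that of TRBJ2 -0.86, the classes differed by 0.28 transcripts, 0.045 in length and -1.13 for TRBJ2, TRBV13-1_1 was at -0.21, and 8 TRBV interactions were called.

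Without expanded chains, length differed by 0.067, TRBV13-1_1 was at -0.056 and 2 TRBV interactions were called. Without TRAV11 to TRAJ18 barcodes, TRBV13-2 (0.13), TRBV1 (0.014) and TRBV29 (0.030) turned, as did the tissue difference at 3 transcripts (0.65), which was also reversed with multiplets kept (2.59). The TRBJ2 difference of the classes was 1.48 with multiplets kept, 0.69 without barcodes of second chains and -0.20 without repeated chains at the same later-round indices. DESeq2 called 6 TRBV genes, the sign-flip test of shares 0 TRBJ genes (4 at an unadjusted p under 0.05), and the setting without second chains 4 TRBJ genes.

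With an animal or sublibrary left out, the class difference was 35.4 to 37.8 for 1-transcript barcodes, 0.40 to 0.55 for the cysteine, 16.7 to 21.4 for public chains and 0.37 to 1.79 for TRBJ2. The tissue difference at 1 transcript was -0.43 to 1.45. Calls numbered 6 to 12 for TRBV and 4 to 7 for TRBJ genes. The TRBV count fell to 6 without mouse-160B and to 7 without mouse-160A or mouse-164B, and the TRBJ count to 4 without sublibrary 1 or 7.

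No TRA-only share was formed under a transcript minimum of 5 or 10 or without expanded chains, no 1-transcript share under a transcript minimum and no public share without chains of another animal. Depth limits mainly the spleen, with 39 barcodes of 10 or more TRB transcripts, and the cysteine shares at that depth.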
